A study of Homo sapiens with 8 samples.

Results

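The genes described here are the 81 genes for cytosolic ribosomal proteins in a gene count table of 58206 genes. They were chosen by name: protein-coding genes with an RPL or RPS symbol and a number, together with RPSA, RPLP0, RPLP1 and RPLP2, without the S6 kinases and the copies on the Y chromosome. The rule reads names, not levels. Of the 81, 77 encode the usual proteins of the ribosome (called core members below): 31 of the small subunit and 46 of the large subunit, the latter including 3 proteins of the P stalk and 2 that ride with 5S rRNA. The other 4, RPS27L, RPL39L, RPL10L and RPL3L, are minor copies of RPS27, RPL39, RPL10 and RPL3.

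RNA came from Alexander1, an established human hepatocellular carcinoma line. The parental group, labelled wt (Axin1 -), carries Axin1, a scaffold protein of the Wnt pathway, without its GSK3 binding region, which leaves Wnt signalling always active according to the series' design text. The other group, labelled Axin1 +, is a stable derivative meant to carry full-length Axin1 at physiological levels, made with a retroviral plasmid and clonal selection in hygromycin B. There were 4 libraries in each group, all grown in the same medium. The same text on viral transfer and selection stands on all 8 samples, and nothing states that the parental cells received an empty vector or the drug, or how many clones the derivative comes from. The labels do not state that the libraries of a group came from separate cultures, so the p-values measure the spread between these libraries, which may be technical.

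Ribosomal proteins are made in nearly equal numbers, since each ribosome takes a fixed set of them. Most of their mRNAs begin with a C followed by an unbroken run of pyrimidines, the 5′ terminal oligopyrimidine (TOP) motif, through which mTOR kinase and the RNA-binding protein LARP1 control their translation and stability as a group. RPL5 and RPL11 bind 5S rRNA before they join the large subunit, and the free particle can bind MDM2, a ubiquitin ligase. In the liver, Wnt signalling and its target MYC are known to raise ribosome production.

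The shared start of these mRNAs can be read in the RefSeq promoter windows (GRCh38.p14), in which 64 of the 81 genes were found, 62 of them core members. The windows below run from 30 bases before the listed start to base 20 of the transcript, 5′ to 3′ on the strand of the gene. Capitals mark the run of C and T that holds the start base, and a window without capitals has a purine there. The set shows RPS27A, RPL11, RPL12 and RPLP0, which were lower in the Axin1 + group, RPS16 and RPS14, which were not, and the minor copies RPS27L and RPL10L beside their main genes RPS27 and RPL10.
RPS27A, chr2:55232658-55232707, plus strand: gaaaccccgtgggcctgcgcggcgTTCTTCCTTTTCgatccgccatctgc
RPL11, chr1:23691776-23691825, plus strand: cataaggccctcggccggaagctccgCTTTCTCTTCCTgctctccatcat
RPL12, chr9:127451387-127451436, minus strand: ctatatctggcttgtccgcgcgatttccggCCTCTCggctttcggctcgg
RPLP0, chr12:120201092-120201141, minus strand: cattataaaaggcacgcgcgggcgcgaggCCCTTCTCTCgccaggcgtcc
RPS16, chr19:39435930-39435979, minus strand: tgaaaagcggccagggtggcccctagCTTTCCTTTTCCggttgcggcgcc
RPS14, chr5:150449720-150449769, minus strand: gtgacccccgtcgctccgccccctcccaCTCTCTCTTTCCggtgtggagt
RPS27, chr1:153990732-153990781, plus strand: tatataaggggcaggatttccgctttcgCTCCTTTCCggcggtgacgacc
RPS27L, chr15:63157458-63157507, minus strand: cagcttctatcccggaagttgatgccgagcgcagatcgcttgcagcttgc
RPL10, chrX:154398347-154398396, plus strand: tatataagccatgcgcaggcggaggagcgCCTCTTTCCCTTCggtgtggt
RPL10L, chr14:46651762-46651811, minus strand: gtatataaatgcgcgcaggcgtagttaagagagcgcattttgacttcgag
Where RefSeq lists several starts (RPS27A, RPL11 and RPL10), the window with the longest pyrimidine run from a C is shown.

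A start at C with at least 5 pyrimidines in a row was found in 46 of the 62 core members (74.2%), against 5.14% of the 27305 genes with a window of the same length. This feature was defined after the sequences were seen. The 6-base tract CTTTTC, its variant ending in CC (CTTTCC) or its variant that starts with T (TCTTTC), searched on the gene's strand from 5 bases before to 10 bases after the start, were found in 41.9% of them and in 2.23% of all genes, and these tracts can overlap the longer run. Over the whole 300-base window and on both strands, CGGAAG, the core of an ETS family site, was present in 64.5% of the core members and in 22.6% of all genes. The shares for GGGCGG, a GC box, were 58.1% and 48.3%, for TATAAA 8.06% and 14.0%, for CACGTG, the E-box bound by MYC, 6.45% and 8.78%, for AAGATGGCG 8.06% and 2.13%, and for CTTTGAT, a TCF site, 1.61% and 3.17%. A match describes the letters in the window and shows no binding. RPS27L and RPL10L both start at G.

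AXIN1 itself was not higher in the Axin1 + group: its mean was 52.4 ± 3.49 CPM in the parental and 45.4 ± 5.13 CPM in the other libraries (SD, n = 4), with an adjusted p of 0.267 (edgeR's quasi-likelihood test). The Axin1 + libraries are therefore called restored-labelled, and every direction below rests on the labels. CPM here are counts relative to a scaled total per library. Totals were 11232951 to 15263761 counts in the parental and 12372436 to 26400782 in the restored-labelled libraries. The summed level of 10 hepatic markers was 24040 to 28140 CPM in the parental and 17180 to 20760 CPM in the restored-labelled libraries. Most of that difference lay in SERPINA1 (alpha-1-antitrypsin), which fell from 16130 to 10358 CPM (means; adjusted p = 0.0164), and the 10 genes did not share a direction: 7 were negative and 3 positive. TTR (transthyretin) rose by 1.76 (log2 fold change, adjusted p = 0.0259), ALB (albumin) was at 1.51 (adjusted p = 0.211), HNF4A at 0.09, and KRT8 and KRT18 at -0.09 and -0.10. Of the other marker lists, 1 of 4 immune genes, 2 of 5 fibroblast genes and 1 of 3 endothelial genes passed the filter on low counts. The immune gene that passed, LYZ (lysozyme), stood at 770.9 and 763.7 CPM (group means), and CD3E was at 0 in all libraries. Of the fibroblast genes, PDGFRB fell from 1.69 ± 0.639 to 0.221 ± 0.162 CPM (SD, n = 4; log2 fold change -2.87, adjusted p = 0.00454) and COL1A1 was at 0.81 (adjusted p = 0.308). PECAM1, also found outside endothelium, rose from 5.18 ± 0.951 to 48.2 ± 10.3 CPM, while VWF and CDH5 had at most 6 counts in any library. The part of these differences in the results below was not tested.

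Ribosomal protein mRNA made up 11.47%, 7.966%, 7.266% and 6.573% of the counts in parental replicates 1 to 4, and 5.704%, 8.207%, 6.734% and 5.789% in restored-labelled replicates 1 to 4. Parental replicate 1 stood well above the other libraries, restored-labelled replicate 2 was the second highest, and the groups overlapped. The means were 8.32% ± 2.18 and 6.61% ± 1.16 (SD, n = 4), a difference of -1.71 percentage points that became -0.66 without parental replicate 1. A total of 74 of the 77 core members had their highest level of all 8 libraries in parental replicate 1. Their lowest level was in restored-labelled replicate 1 for 38 of them and in restored-labelled replicate 4 for 28. Such a share is relative to all other mRNA in the library, and in bulk RNA a lower level in each cell cannot be told apart from fewer cells with the higher level. The mitochondrial ribosomal proteins, encoded by other nuclear genes, took 0.541% ± 0.0203 and 0.544% ± 0.0349 of the counts (SD, n = 4).

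**Figure D1:**
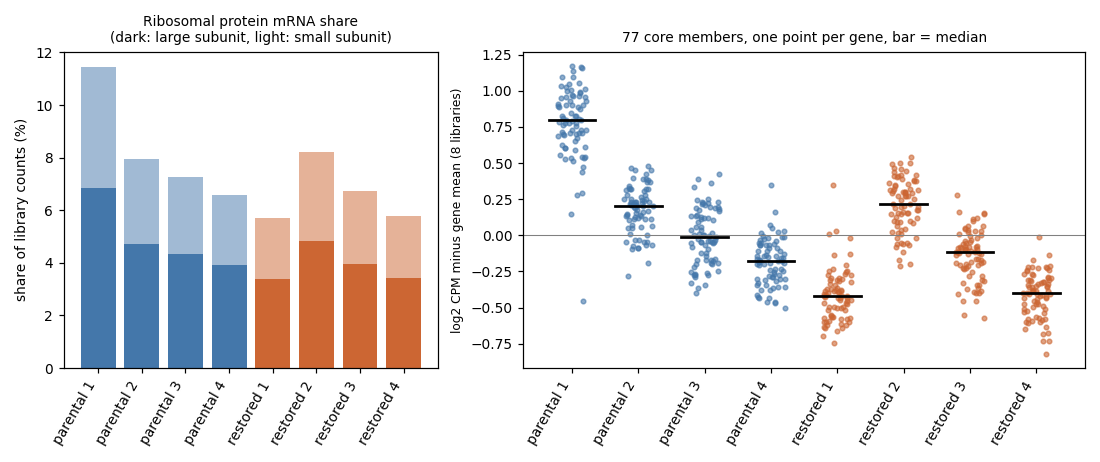
Left, the percentage of each library's counts in cytosolic ribosomal protein genes, split into large and small subunit (bars start at 0; blue, parental; orange, restored-labelled; numbers are replicates). Right, the level of each of the 77 core genes in each library as log2 CPM minus that gene's mean over the 8 libraries, with black bars at the medians: nearly all genes sit above their mean in parental replicate 1 and below it in restored-labelled replicates 1 and 4. The other libraries do not follow the groups: 63 and 65 of 77 genes sit above their mean in parental and restored-labelled replicate 2, 35 in parental replicate 3, 16 in restored-labelled replicate 3 and 7 in parental replicate 4.

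The core members moved up and down as a block between libraries. The median pairwise correlation of log2 CPM over the 8 libraries was 0.899 (quartiles 0.783 and 0.953), a description, since all genes share the same libraries. Relative to each gene's own mean, the median core member stood at 0.80, 0.20, -0.01 and -0.18 (log2) in parental replicates 1 to 4. In restored-labelled replicates 1 to 4 it stood at -0.42, 0.22, -0.12 and -0.40. The lowest positions in the restored-labelled group were in its deepest libraries, replicates 1 and 4. With all libraries thinned to the smallest total, the median change of the core members was again -0.41. Random thinning keeps each gene's expected share of a library, so this value cannot show whether depth plays a part, which was not tested. The genes closest to the shared pattern were RPS24 (r = 0.996 with the mean of the other members), RPL13 (0.995) and RPS18 (0.993). The farthest among the core were RPL17 (-0.505), RPL23A (0.350) and RPL41 (0.442), and the minor copies RPL39L (-0.564), RPS27L (-0.068) and RPL10L (0.304) also lay apart. Among the 14209 tested genes that are no members, FAU, which encodes the small subunit protein eS30 and falls outside the naming rule, had the third highest correlation with the core mean (r = 0.987), after ENSG00000270781 (0.991) and ZBTB8OS (0.989).

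The comparison of restored-labelled with parental libraries asked whether the expression of this set differs with the Axin1 label. A total of 80 members passed the filter on low counts, RPL3L being the exception. Of these, 75 had a negative and 5 a positive log2 fold change, with a median of -0.40, whereas the median of all 14289 tested genes was 0.00. With edgeR's quasi-likelihood test and a threshold of 0.05 on the p-value adjusted over all tested genes, 10 members were lower, 12.5% of those tested beside 8.77% of all tested genes. Another 2 members were higher, 2.5% beside 10.4%, and both are minor copies. The groups did not overlap for 8 members that were lower (10% beside 11.2% of all tested genes) and for 2 that were higher (2.5% beside 12.7%). The share of members called lower was thus near that of all genes, and what set the list apart descriptively was its common sign. Of the 77 core members 74 were negative, with a median of -0.41.

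These numbers rested in part on single libraries. Without parental replicate 1 the median of the core members was -0.18, with 58 of 77 negative and 7 members called lower. Without both replicates numbered 1, an alternative chosen after the data were seen, the median was -0.08 and 52 of 77 were negative. Leaving out restored-labelled replicate 3 or 4 left 1 member called lower, RPL5, and leaving out parental replicate 2 left 2, RPL5 and RPL12. Without restored-labelled replicate 1 there were 6, without restored-labelled replicate 2 there were 15 and without parental replicate 4 there were 20. Calls over all tested genes, in both directions, moved as well, from 2738 with all libraries. They were 1531 and 1394 without restored-labelled replicate 3 or 4, and 1508 without parental replicate 2. They were 3159 and 2134 without restored-labelled replicate 1 or 2, and 3523 and 2160 without parental replicate 1 or 4. When the libraries were scaled by the summed counts of the members themselves, the median of all tested genes moved to 0.38 and that of the core members to 0.00, and RPL5 and RPL12 were still lower than the rest of the set.

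**Figure D2:**
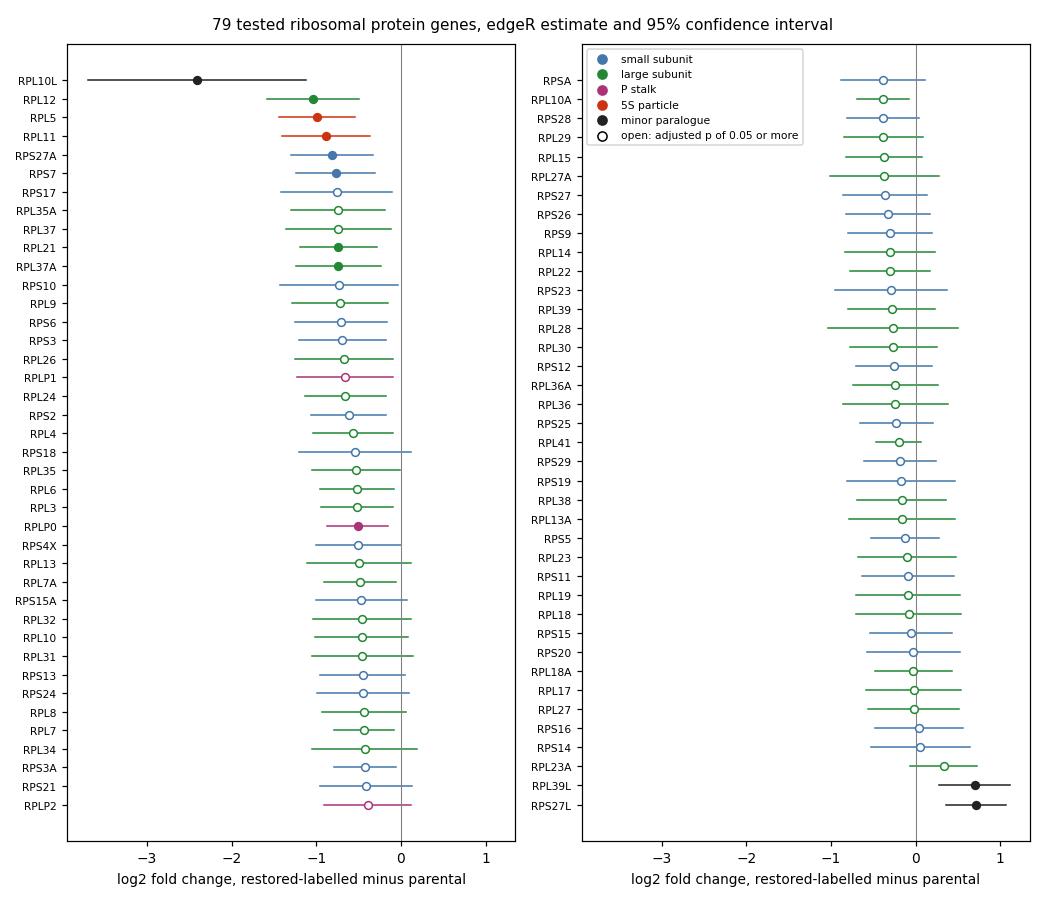
Log2 fold change, restored-labelled minus parental, of 79 tested members in order of their estimate (points), with 95% confidence intervals (lines), coloured by role. Filled points passed an adjusted p under 0.05: 9 of those shown lie left of 0, and RPL39L and RPS27L lie right of it at the end of the second column.

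Within the 40S subunit, 29 of 31 members were negative, with a median of -0.39, and 3 fell (9.68% beside 8.77% of all tested genes). RPS27A encodes ubiquitin fused to eS31, which is cleaved to give both proteins. RPS27A was at 2285, 1541, 1379 and 1163 CPM in the parental libraries (in order of replicate number) and 955, 1113, 857 and 706 CPM in the restored-labelled ones. The groups did not overlap, although parental replicate 4 and restored-labelled replicate 2 came close. The log2 fold change was -0.81 (SE 0.22, adjusted p = 0.0266), and -0.59 without parental replicate 1. RPS27A did not pass the threshold without parental replicate 2 (adjusted p = 0.0615) or without restored-labelled replicate 3 (0.0806) or 4 (0.0884). The opposite strand carries exons of CLHC1, and whether the counting used strand is not given in the sources used here.

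RPS7 (eS7), a protein of the small subunit body that can also bind MDM2, was at 2027, 1393, 1214 and 1034 CPM in the parental and at 858, 981, 826 and 664 CPM in the restored-labelled libraries. Here too every restored-labelled library was below every parental one. The log2 fold change was -0.77 (SE 0.21, adjusted p = 0.0286), and -0.55 without parental replicate 1, and RPS7 too did not pass without parental replicate 2 or restored-labelled replicate 3 or 4 (adjusted p from 0.0671 to 0.0951).

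The remaining 28 small subunit members did not pass the threshold. RPS2 (uS5), with parental values of 3590, 2403, 2043 and 2286 CPM and restored-labelled values of 1575, 2020, 1789 and 1345 CPM, had groups that did not overlap but an adjusted p of 0.0547. RPS6 (eS6), the substrate after which the S6 kinases are named, was at 1666, 1034, 984 and 732 CPM against 546, 894, 689 and 581 CPM (-0.70, SE 0.25, adjusted p = 0.0693). RPSA (uS2), known also as a laminin receptor, had a log2 fold change of -0.39 (SE 0.23, adjusted p = 0.255). At the other end of the small subunit were RPS16 (uS9) at 0.04 and RPS14 (uS11, a gene of the chromosome 5 region lost in 5q- syndrome) at 0.06. RPS16 had 1829, 1186, 962 and 940 CPM in the parental and 1049, 1642, 1345 and 1025 CPM in the restored-labelled libraries. It shared the peak in parental replicate 1, but restored-labelled replicate 2 was the second highest library.

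For the 60S subunit, 45 of 46 members were negative, with a median of -0.43, and 6 fell (13.0% beside 8.77% of all tested genes). RPL5 (uL18) had the smallest adjusted p among the core members. It was at 2603, 1800, 1662 and 1361 CPM in the parental libraries (in order of replicate number) and at 973, 1116, 869 and 780 CPM in the restored-labelled ones. Each restored-labelled library was below each parental one, with a gap between 1361 and 1116 CPM. The means of 1857 ± 530 and 935 ± 145 CPM (SD, n = 4) differed 1.99-fold, a log2 fold change of -0.99 (SE 0.21, 95% confidence interval -1.44 to -0.54, adjusted p = 0.00843). RPL5 was called in all 23 alternatives, with adjusted p-values up to 0.0414, and its log2 fold change was -0.78 without parental replicate 1. It lies on chromosome 1, and its exons overlap those of FAM69A on the opposite strand. The 40 nearest tested genes that are no members were also lower, with a median of -0.42, 11 called lower and 0 higher. RPL5 differed from that median by -0.57, and the 20 nearest genes had a median of -0.53.

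RPL11 (uL5), which enters the ribosome together with RPL5, was at 1605, 968, 855 and 765 CPM against 531, 724, 548 and 471 CPM. The groups did not overlap, and the closest values were parental replicate 4 and restored-labelled replicate 2. The log2 fold change was -0.88 (SE 0.24, adjusted p = 0.0246), and -0.60 without parental replicate 1. Leaving out restored-labelled replicate 4 gave RPL11 an adjusted p of 0.0830, leaving out restored-labelled replicate 3 gave 0.0725 and leaving out parental replicate 2 gave 0.0530. The ratio of normalised counts of RPL5 to those of RPL11 was 180% ± 13.7 in the parental and 166% ± 12.7 in the restored-labelled libraries (SD, n = 4), a difference that did not pass an exact two-sided permutation test (p = 0.200).

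RPL12 (uL11), which forms the base of the P stalk, had the largest decrease of any core member. It was at 1867, 1133, 1043 and 857 CPM in the parental and at 554, 796, 566 and 469 CPM in the restored-labelled libraries. The groups did not overlap. The means of 1225 ± 443 and 596 ± 140 CPM (SD, n = 4) differed 2.06-fold, a log2 fold change of -1.04 (SE 0.25, adjusted p = 0.0158). Without parental replicate 1 it was -0.76. RPL12 did not pass the threshold without restored-labelled replicate 3 (adjusted p = 0.0519) or 4 (adjusted p = 0.0573).

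The P stalk itself, which recruits the translational GTPases, consists of RPLP0 (uL10) and dimers of RPLP1 and RPLP2. RPLP0, a common reference gene in quantitative PCR, was at 3696, 2804, 2778 and 2396 CPM in the parental and at 2035, 2151, 2203 and 1795 CPM in the restored-labelled libraries. The groups did not overlap. Its log2 fold change of -0.51 (SE 0.16, adjusted p = 0.0485) lay close to the threshold and did not pass it in 13 of 23 alternatives, among them leaving out any library other than parental replicate 4 (adjusted p from 0.0541 to 0.146). RPLP1 had a log2 fold change of -0.66 (SE 0.26, adjusted p = 0.1000), with 4726, 2751, 2336 and 2227 CPM against 1565, 2514, 2011 and 1526 CPM. For RPLP2 the values were 1178, 778, 596 and 668 CPM against 521, 824, 629 and 478 CPM (-0.39, SE 0.24, adjusted p = 0.268).

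RPLP1 and RPLP2 enter the stalk as partners, and their ratio needs no scaling of the libraries. RPLP1 counts were 401.4%, 353.4%, 391.9% and 333.5% of those of RPLP2 in the parental and 300.4%, 305.2%, 319.6% and 319.3% in the restored-labelled libraries. Every restored-labelled ratio was below every parental one. The means were 370.0% ± 32.0 and 311% ± 9.81 (SD, n = 4; exact two-sided permutation test, p = 0.0286, the smallest p that 70 labelings allow; 0.0477 after adjustment over the 5 ratios compared).

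RPL21 (eL21) and RPL37A (eL43) were the other large subunit members that fell. RPL21 was at 1034, 718, 630 and 526 CPM in the parental and at 405, 530, 439 and 368 CPM in the restored-labelled libraries, with restored-labelled replicate 2 just above parental replicate 4. Its log2 fold change was -0.74 (SE 0.21, adjusted p = 0.0300), and -0.52 without parental replicate 1. It did not pass the threshold without parental replicate 2 or restored-labelled replicate 1, 3 or 4 (adjusted p from 0.0543 to 0.0983). RPL21 has 133 annotated pseudogene copies, which held 1.62% of the counts of gene and copies together. RPL37A was at 1991, 1288, 1177 and 946 CPM against 780, 1031, 776 and 648 CPM, with the same overlap. Its log2 fold change of -0.74 (SE 0.23, adjusted p = 0.0448) became -0.49 without parental replicate 1, with an adjusted p of 0.0565. Leaving out any library other than parental replicate 4 and restored-labelled replicate 2 ended the call of RPL37A, with adjusted p-values up to 0.135.

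The remaining 40 members of the large subunit did not pass the threshold. RPL3 (uL3), a protein near the peptidyl transferase centre, had a log2 fold change of -0.52 (SE 0.19, adjusted p = 0.0869). RPL10 (uL16), which is added late in subunit assembly, had a log2 fold change of -0.46 (SE 0.25, adjusted p = 0.222). RPL19 (eL19), whose tail forms a bridge between the subunits, was at -0.09 (adjusted p = 0.849) and at 0.26 without parental replicate 1. RPL23A (uL23), at the exit of the nascent chain tunnel, was the only large subunit member with a positive value, 0.33 (SE 0.18, adjusted p = 0.222). Its levels were 870, 629, 546 and 553 CPM in the parental and 723, 961, 870 and 712 CPM in the restored-labelled libraries. Parental replicate 1 was as high as restored-labelled replicate 3, and without it RPL23A passed the threshold. It is the core member with the weakest tie to the shared pattern after RPL17, as named above.

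**Figure D3:**
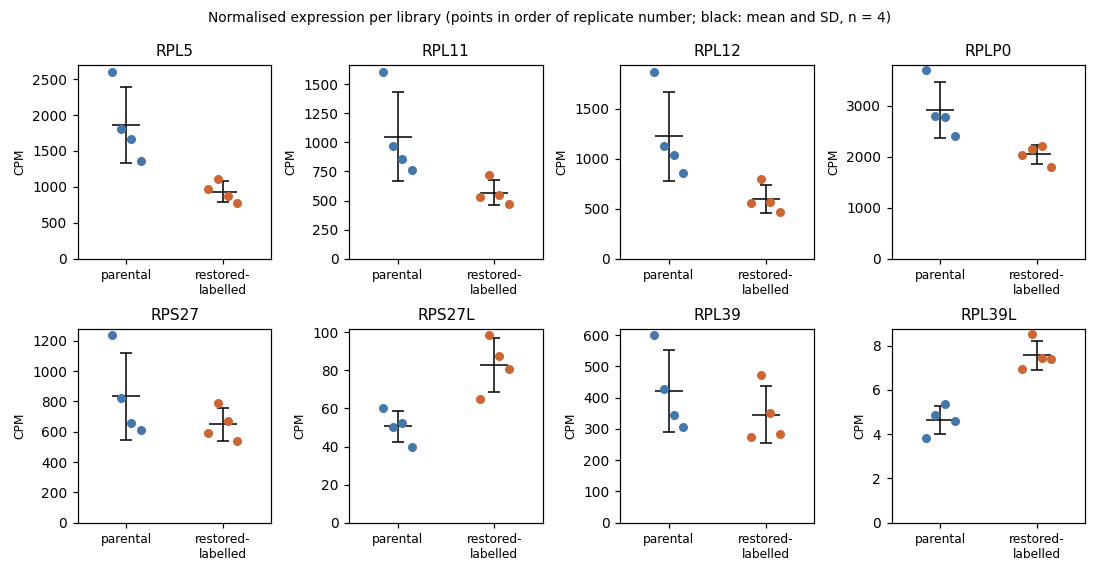
CPM in each library (points, by replicate number) with mean and SD (black, n = 4) for RPL5, RPL11, RPL12 and RPLP0 and for the pairs RPS27 with RPS27L and RPL39 with RPL39L. All axes start at 0. In the upper row no restored-labelled point reaches a parental one, whereas in the lower row the main genes overlap between groups and both minor copies lie higher in every restored-labelled library.

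Both subunits had negative medians, and their balance moved slightly. The ratio of small to large subunit counts was 0.672, 0.683, 0.680 and 0.683 in parental replicates 1 to 4 and 0.684, 0.703, 0.697 and 0.693 in restored-labelled replicates 1 to 4. All restored-labelled ratios were above the parental ones, although the largest parental and the smallest restored-labelled value were close. The means were 0.679 ± 0.005 and 0.694 ± 0.008 (SD, n = 4).

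Both minor copies that rose did so while their main genes did not. RPS27L, a copy of RPS27, was at 60.0, 50.3, 52.1 and 39.8 CPM in the parental libraries (in order of replicate number) and at 64.9, 98.7, 87.7 and 80.6 CPM in the restored-labelled ones. Every restored-labelled library was above every parental one, by a narrow margin between restored-labelled replicate 1 and parental replicate 1. The means of 50.5 ± 8.31 and 83.0 ± 14.1 CPM (SD, n = 4) gave a log2 fold change of 0.71 (SE 0.16, 95% confidence interval 0.36 to 1.07, adjusted p = 0.0129). RPS27L passed the threshold without each library in turn, and did not with the offset for GC content and length (0.60, adjusted p = 0.0572). RPS27 was at 1241, 821, 660 and 610 CPM against 592, 793, 673 and 541 CPM, a log2 fold change of -0.36 (SE 0.22, adjusted p = 0.288).

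Within a library, RPS27L counts amounted to 4.84%, 6.13%, 7.89% and 6.52% of those of RPS27 in the parental and to 10.98%, 12.45%, 13.03% and 14.90% in the restored-labelled libraries. No ratio of one group reached the other group. The means were 6.34% ± 1.26 and 12.8% ± 1.62 (SD, n = 4; exact two-sided permutation test, p = 0.0286, 0.0477 after adjustment over 5 ratios). RPL39L, a copy of RPL39 best known from male germ cells and some tumours, was at 3.83, 4.87, 5.35 and 4.58 CPM in the parental and at 6.96, 8.50, 7.44 and 7.38 CPM in the restored-labelled libraries. These values rest on 43 to 72 and 103 to 194 counts per library. The groups did not overlap. The log2 fold change was 0.70 (SE 0.19, adjusted p = 0.0267), but leaving out any of 5 libraries (parental replicates 2 and 4, restored-labelled replicates 2, 3 and 4) raised the adjusted p to between 0.0580 and 0.0680.

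RPL39 had a log2 fold change of -0.28 (SE 0.23, adjusted p = 0.423), and RPL39L counts rose from 1.20% ± 0.418 to 2.26% ± 0.371 of those of RPL39 (SD, n = 4; exact two-sided permutation test, p = 0.0286, 0.0477 after adjustment). RPL10L, an intronless copy of RPL10 known from spermatogenesis, was rare, with 10, 23, 9 and 12 counts in the parental and 11, 0, 4 and 2 counts in the restored-labelled libraries. Scaled to CPM the groups did not overlap, since restored-labelled replicate 1 has the largest total. The log2 fold change was -2.41 (SE 0.59, adjusted p = 0.0170). RPL10L did not pass the threshold without parental replicate 2 (adjusted p = 0.0632) or without restored-labelled replicate 3 (0.0520) or 4 (0.0625). Its share of RPL10 counts, 0.0488% ± 0.0216 and 0.0121% ± 0.0141 (SD, n = 4), did not differ after adjustment in the exact permutation test (p = 0.0571, adjusted 0.0714). RPL3L, the copy of RPL3 in striated muscle, had 3, 0, 1 and 2 counts in the parental and 0, 0, 2 and 0 counts in the restored-labelled libraries and was not tested.

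Most core members were abundant, and 71 of the 77 had mean levels between 371 and 2736 CPM. Per kilobase of the principal transcript, the highest mean levels over the 8 libraries were those of RPS18 (2923 CPM per kilobase), RPS12 (2701) and RPL19 (2603). The ranking depends on the length used. Per kilobase of coding sequence RPLP1 (7184) and RPL41 (4948) came first, followed by RPS12 (4303) and RPS18 (3929). RPS18 (uS13) was at 3468, 1985, 1738 and 1316 CPM in the parental and 1072, 2118, 1434 and 1202 CPM in the restored-labelled libraries (-0.55, SE 0.30, adjusted p = 0.227). RPS12 (eS12) had a log2 fold change of -0.25 (SE 0.20, adjusted p = 0.410).

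The lowest tested levels per kilobase were those of RPL10L (0.735 CPM per kilobase), RPS10 (8.32) and RPL17 (8.96). The minor copies RPL39L (9.36) and RPS27L (10.4) came next, then RPL36A at 15.02 CPM per kilobase, while the other 74 core members had at least 89.0 (RPL37). The places of RPS27L and RPL37 depend on the length used, since their principal transcripts are long (6434 and 7686 bases). Per kilobase of coding sequence, RPS27L was at 264.9 and RPL37 at 2350. RPS10, RPL17 and RPL36A each share exons on their strand with an annotated readthrough gene (RPS10-NUDT3, RPL17-C18orf32 and RPL36A-HNRNPH2). Their pseudogene copies held 40.1%, 56.9% and 46.5% of the counts of gene and copies together, whereas that share was under 5% for 75 of the 81 members. How reads shared between such genes were assigned is not given in the sources used here, so the values of these 3 genes are uncertain. RPS10 had a log2 fold change of -0.73 (SE 0.31, adjusted p = 0.130), and RPL17 of -0.02 (SE 0.25, adjusted p = 0.962). Summing every member with its pseudogenes left the same 10 members lower and the same 2 higher.

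Members differed by where they lie in the genome. The 5 core members on chromosome 1 had a median of -0.78 (log2 fold change) and the 4 on chromosome 2 one of -0.75, while the 12 on chromosome 19 had a median of -0.14 and the 6 on chromosome 17 one of -0.10. The 40 nearest tested genes that are no members were taken as each member's neighbourhood. Across the 77 core members, the log2 fold change followed the median of the neighbours (Pearson's r = 0.697, Spearman's rho = 0.719, a description over genes that share libraries and in part neighbours). Yet 76 of the 77 lay below their neighbours' median, and the median difference was -0.47 (-0.43 with the 20 nearest genes). The exception was RPL23A, 0.07 above its neighbours. RPL12 lay farthest below, by -0.93. RPS14, at 0.06, lies among genes with a median of 0.56 and so was -0.50 below them. The neighbours of the 3 core members on chromosome 5 had a median of 0.48, against -0.29 for the members themselves.

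**Figure D4:**
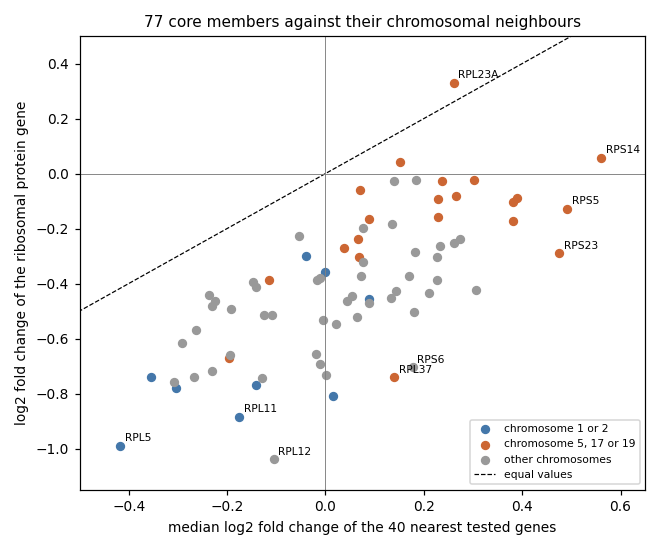
Log2 fold change (restored-labelled minus parental) of each of the 77 core members against the median log2 fold change of its 40 nearest tested genes, coloured by chromosome group. The dashed line marks equal values, and 76 points lie below it. Most members of chromosomes 5, 17 and 19 sit toward the upper right and most of those of chromosomes 1 and 2 toward the lower left. Exceptions include RPL26 (chromosome 17, -0.67), RPL37 (chromosome 5, -0.74) and RPL31 (chromosome 2), whose neighbours had a median of 0.09.

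The common sign was also seen after a correction for base composition and length. Core members had a median transcript GC content of 49.65%, beside 49.33% over all tested genes, but a median transcript length of 705 bases beside 2594. With an offset that takes out library trends along GC content and gene length, the median of the core members was -0.39, and that of all tested genes -0.04. The offset gave 26 members called lower, while the calls over all tested genes in both directions went from 2738 to 3378. The share of all tested genes called lower under the offset is not given here. Both classes of start showed the common sign: the 46 core members with a C start and at least 5 pyrimidines had a median of -0.42 with 6 called lower, and the 16 matched ones without it had a median of -0.39 with 1 called lower. These are 13.0% and 6.25% beside 8.77% of all tested genes. Some listed starts among the 16 lie inside longer pyrimidine runs, of 12 bases in RPL19 (at a T) and 11 in RPS7. The classes therefore cannot tell mRNAs with the TOP motif from those without it.

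Other genes of the ribosome and its supply were read from lists by role. In these lists 24 genes passed the threshold, and 6 of them (CDKN1A, DEPTOR, POLR1E, NOP56, UTP4 and MRPS31) did so without each library in turn. The other 18 did not pass it without at least 1 library. Of 7 ribosomal protein genes outside the naming rule, 0 passed the threshold in edgeR's quasi-likelihood test and 0 had an unadjusted p under 0.05, with a median log2 fold change of -0.05. FAU was at -0.48 (SE 0.30, adjusted p = 0.291), with 760 CPM in parental replicate 1 and 240 to 485 CPM in the other 7 libraries. Of 14 tested translation factors and related genes with TOP mRNAs, 13 were negative, with a median of -0.17, and 2 fell (14.3% beside 8.77% of all tested genes). EEF1B2, an exchange factor subunit for elongation factor 1A, fell by 0.77 (SE 0.20, adjusted p = 0.0207) and TPT1, the translationally controlled tumour protein, by 0.93 (SE 0.27, adjusted p = 0.0353). With 1 library left out, the adjusted p reached 0.0720 for EEF1B2 and 0.111 for TPT1, in both cases without restored-labelled replicate 4. EEF1A1 itself was at -0.17 (adjusted p = 0.439) and PABPC1, the poly(A)-binding protein, at -0.35 (adjusted p = 0.134).

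All 8 snoRNA host genes, whose spliced RNAs also begin with the TOP motif, were negative, with a median of -0.57, and 1 of them, SNHG12, fell (-0.74, SE 0.19, adjusted p = 0.0223), 12.5% of the list beside 8.77% of all tested genes. GAS5 was at 553, 202, 201 and 134 CPM in the parental and at 117, 165, 115 and 107 CPM in the restored-labelled libraries (-1.11, SE 0.37, adjusted p = 0.0584). Parental replicate 1 was again far above the rest. The same held for ZFAS1, with 228, 68.3, 98.0 and 35.5 CPM in the parental libraries (-1.31, SE 0.50, adjusted p = 0.0887).

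Of 40 ribosome biogenesis factors, 5 fell and 1 rose, with a median of -0.17. These are 12.5% and 2.5% of the list beside 8.77% and 10.4% of all tested genes. NOP56, of the box C/D particles that methylate rRNA, fell by 0.61 (SE 0.13, adjusted p = 0.00845), and NOP2, an rRNA methyltransferase, by 0.58 (SE 0.15, adjusted p = 0.0190). UTP4, EFL1 and RRP12 fell by 0.43, 0.49 and 0.36 (adjusted p = 0.0148, 0.0215 and 0.0401). RIOK2, a kinase of late 40S maturation, rose by 0.51 (SE 0.15, adjusted p = 0.0399). Of 14 genes of RNA polymerase I and its factors, POLR1E rose by 0.99 (SE 0.20, adjusted p = 0.00705) and POLR1F fell by 0.54 (SE 0.17, adjusted p = 0.04999), with a median of -0.12 (7.14% in each direction). MYC was at -0.32 (SE 0.24, adjusted p = 0.379). Its levels were 36.3, 65.7, 66.7 and 86.6 CPM in the parental and 56.8, 36.2, 62.1 and 48.5 CPM in the restored-labelled libraries. A link between MYC and the ribosomal protein levels was not tested. MAX, the partner of MYC, rose by 0.43 (SE 0.12, adjusted p = 0.0243), the single call among 6 tested genes of the MYC network (16.7% higher beside 10.4% of all tested genes).

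Among 15 genes that act on TOP mRNAs through mTOR, 3 rose and 1 fell, 20% and 6.67% of the list beside 10.4% and 8.77% of all tested genes. DEPTOR, an inhibitor bound to mTOR, rose from 7.91 ± 3.06 to 22.6 ± 6.09 CPM (SD, n = 4), a log2 fold change of 1.51 (SE 0.30, adjusted p = 0.00631). AKT1S1 (PRAS40, an inhibitory subunit of mTORC1) rose by 0.50 (SE 0.13, adjusted p = 0.0248) and RPS6KB1 (S6 kinase 1) by 0.56 (SE 0.17, adjusted p = 0.0422), while MLST8, a subunit of both mTOR complexes, fell by 0.44 (SE 0.12, adjusted p = 0.0252). MTOR and LARP1 were at 0.00 and 0.27 (adjusted p = 0.993 and 0.168). These are mRNA levels and say nothing of kinase activity.

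In the list of genes that link free ribosomal proteins to the cell cycle, CDKN1A, the cyclin-dependent kinase inhibitor p21, rose from 37.5 ± 3.57 to 158.8 ± 22.5 CPM (SD, n = 4), a log2 fold change of 2.08 (SE 0.14, adjusted p = 8.4e-06). MDM2 was at 0.22 (SE 0.20, adjusted p = 0.460) and MDM4 at 0.18 (SE 0.15, adjusted p = 0.419). Of 77 tested mitochondrial ribosomal proteins, 51 were negative, with a median of -0.07. In that list 4 fell (MRPS31, MRPL11, MRPL49 and MRPS35) and 2 rose (MRPS23 and MRPL45), 5.19% and 2.60% of the list beside 8.77% and 10.4% of all tested genes. The largest change was that of MRPS31, which fell by 1.57 (SE 0.27).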

How the data were processed

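The authors deposited raw counts per gene for each library as 1 table, whole numbers with differing totals and no normalization. Column-purified total RNA went into mRNA libraries with dual indexes, per the labels' protocols. The submitters' processing notes name bcl2fastq, fastp 0.23.1, STAR 2.7.4 and the build GRCh38. The counter, its strand setting and its annotation are not given in the sources used here.

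Groups and replicate numbers came from the sample titles, and the sample descriptions gave the column of each. GENCODE release 29 (GRCh38) held 57943 of the 58206 identifiers and gave coordinates, lengths, GC content and overlaps; a symbol table held 57495. The count analysis used edgeR 4.0.16 (R 4.3.3): filterByExpr (minimum count 10, minimum total 15), TMM scaling and the two-sided quasi-likelihood test on all 8 libraries without covariates, with Benjamini-Hochberg adjustment over the 14289 genes tested and a threshold of 0.05. CPM use the TMM-scaled totals, log2 CPM a prior count of 2. The SE is |log2 fold change| divided by the root of F, and intervals are at 95%. Ratios were compared with exact permutation tests over 70 labelings. Levels per kilobase use the principal transcript, or the coding sequence where stated.

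The naming rule for the members reads no levels, but the set itself and the gene lists were chosen with earlier results of these data known. Named members are those past the threshold, the 3 highest and lowest in level per length, RPS6, RPSA, the P stalk, RPL5, RPL11, and the minor copies with their main genes; from other lists, genes past the threshold or among the 3 of smallest p. RPS2, RPS14, RPS16, RPL23A, RPL36A, RPL37, RPL41, EEF1A1, the single genes of the marker lists, MTOR and LARP1, the genes most like the core mean (ENSG00000270781, ZBTB8OS) and the members closest to it (RPS24, RPL13) were added after their values were seen. Some genes that the rule names are not reported here. Alternatives were other scalings and filters, DESeq2 1.42.0, limma-voom (limma 3.58.1), the replicate number as a block, a stricter threshold, an offset for GC content and length (splines with 5 degrees of freedom), thinning to 11232951 counts, summing with pseudogenes, and leaving out libraries.

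On simulated counts with the means and totals of these libraries (14073 genes), edgeR recovered 12.2% of genes changed 1.5-fold, 48.9% at 2-fold and 97.9% at 4-fold; false calls were 6.87% of 131.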

Additional observations from a re-analysis of the deposited data

Results flagged for a closer look

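In 70 groups of 4 libraries (the CPM of single genes and the summary measures, by group), 2 held 1 library whose gap to the nearest other exceeded Dixon's 95% critical value of 0.829 of the group's range; chance alone gives such a gap in about 1 in 20 groups. RPL10L stood at 1.56 CPM in parental replicate 2, with the next parental library at 0.89 CPM. RPL3L stood at 0.0986 CPM in restored-labelled replicate 3, which corresponds to 2 counts, with 0 counts in the other 3 restored-labelled libraries. Both genes lie near the lowest levels that can be counted here.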

How the results depend on the processing

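With 4 libraries per group, changes of 1.5-fold are mostly not detectable, so members short of the threshold are not shown to be unchanged. The counts of members past the threshold depended on the processing far more than the direction. The 10 members called lower became 20 without a filter, 24 with DESeq2, 26 with the GC and length offset, 1 at an adjusted p under 0.01 (RPL5) and 2 when scaled by the summed member counts, and ranged from 1 to 20 with 1 library left out. In the same settings and order, the 2738 calls over all tested genes, in both directions, became 3196, 3504, 3378, 964 and 1479. The share of all tested genes called lower in each setting is not given here, so these member counts cannot be set against it. The 2 called higher became 1 without a filter, with the offset and with thinning, 0 at an adjusted p under 0.01, and 4 without both replicates numbered 1 (chosen after seeing the data), and ranged from 1 to 3 with 1 library left out. With 1 library left out, the median of the core members ranged from -0.55 to -0.18. The total of genes called ranged from 964 to 4623 over all alternatives.

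Scaling by the summed member counts sets the members to about 0 by construction. Under it the median was 0.0017 for the core, 0.011 for the small and -0.009 for the large subunit, 38 core members were negative, and AXIN1 was at 0.16 (adjusted p = 0.717). Signs also turned there for RPS12 (0.15), RPL19 (0.36), RPL17 (0.30), RPSA (0.0318), RPLP2 (0.0188), RPS27 (0.0820), RPL39 (0.13), POLR1D (0.0459), RRP12 (0.0077), RPL22L1 (0.0917) and PABPC1 (0.0395). Without both replicates numbered 1, RPS12 (0.0168), RPL39 (0.0353), FAU (0.0068) and RPL19 (0.37) turned. RPL19 also turned with total counts only (0.0092) and without parental (0.26) or restored-labelled (0.0117) replicate 1, its range with 1 library left out being -0.27 to 0.26. RPL17 turned with total counts only (0.0477), without a filter (0.0018), with limma-voom (0.0017), and without parental replicate 3 (0.10) or 4 (0.09) or restored-labelled replicate 4 (0.10), over a range of -0.16 to 0.10. None of these had passed the threshold except RRP12. The cause was not tested.

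The replicate numbers were used as a block as an alternative, though the labels do not say that a number marks a shared culture or day. Same-numbered libraries correlated at -0.063, 0.007, -0.032 and 0.227 in their deviations (replicates 1 to 4). The best correlations with another number were 0.448, 0.04, 0.44 and 0.17, so only replicate 4 correlated best with its own number. These few values cannot decide whether a number marks a shared culture or day. With the block 7 members were lower, all among the 10, and 1 higher, RPS27L.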
